A study of Homo sapiens with 6 samples.

Results

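The HOX cluster genes are the homeobox genes that lie side by side in 4 chromosomal clusters, HOXA on chromosome 7, HOXB on chromosome 17, HOXC on chromosome 12 and HOXD on chromosome 2. They were chosen by membership of these clusters and not by any measured value, though earlier results of these data were known. Of them 38 are described, out of 20007 protein-coding genes of the annotation. ATAC-seq, which cuts and tags open DNA, was run on the human liver cancer line HLF, an established line, with 3 libraries from cells given the vehicle DMSO and 3 from cells given 5 μM SNDX-5613 (revumenib), a small molecule that keeps menin from binding MLL1. The labels give 24 h of treatment for all 6 libraries and no genetic change in either group, while the methods of the study describe a longer treatment, so how long the cells were treated is not settled. All libraries come from 1 cell line. The methods describe a replicate as 1 dish divided between the treated and the untreated group, but the labels do not say that libraries with the same number came from the same dish.

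HOX genes encode transcription factors that give cells their position along the body axis. The genes are numbered by paralog group, and low (anterior) numbers act toward the head and high (posterior) numbers toward the tail and the ends of the limbs. Their chromatin is a textbook case of opposing control, since MLL1, with menin, places the active mark H3K4me3 on HOX genes and Polycomb complexes place the repressive mark H3K27me3, and in leukemias with MLL fusions menin holds the fusion protein on HOXA genes. The purpose of the comparison in the study was to ask how blocking menin from MLL1 changes accessibility.

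Each library is a list of peaks, called on that library alone, in which every peak has a fold enrichment and a -log10 p at its summit. Depth was not given as read numbers, but the number of reads stacked at a summit, its pileup, could be solved as a whole number from these 2 values. The genome-wide background pileup was 0.997 to 1.51 in 5 libraries and 0.211 in SNDX-5613 replicate 3, which had 40568 peak regions against 88026 to 113675 in the others. Whether peaks missing from SNDX-5613 replicate 3 were missing for its depth was not tested, and results are given with and without this library. The promoters open in every library were 4 of 4 for mesenchymal markers, 0 of 8 for hepatocyte markers, of which 7 had no peak in any library, and 0 of 5 for markers of blood, endothelial and neuronal cells. Of 4 epithelial markers 2 were open in all 6 libraries, 1 in some and 1 in none, and 1 ranked higher with SNDX-5613. Of the 8 hepatocyte promoters 7 were thus closed in these cells, and FOXA2 had a peak in 1 DMSO and 1 SNDX-5613 library.

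Most HOX promoters were closed or weakly open in HLF cells. A promoter was taken as open in a library when at least 1 summit lay within 1 kb of the transcription start site (TSS). By this rule 9 of 38 HOX promoters (23.7%) were open in all 6 libraries, 12 in some libraries and 17 (44.7%) in none. Among all protein-coding genes, 58.7% of promoters were open in all 6 libraries and 26.0% in none. The 9 promoters open throughout belonged to HOXA4, HOXA5, HOXA13, HOXB5, HOXB6, HOXB9, HOXC9, HOXC10 and HOXC13, so that HOXA, HOXB and HOXC had 3 each and HOXD had 0 of 9.

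**Figure D1:**
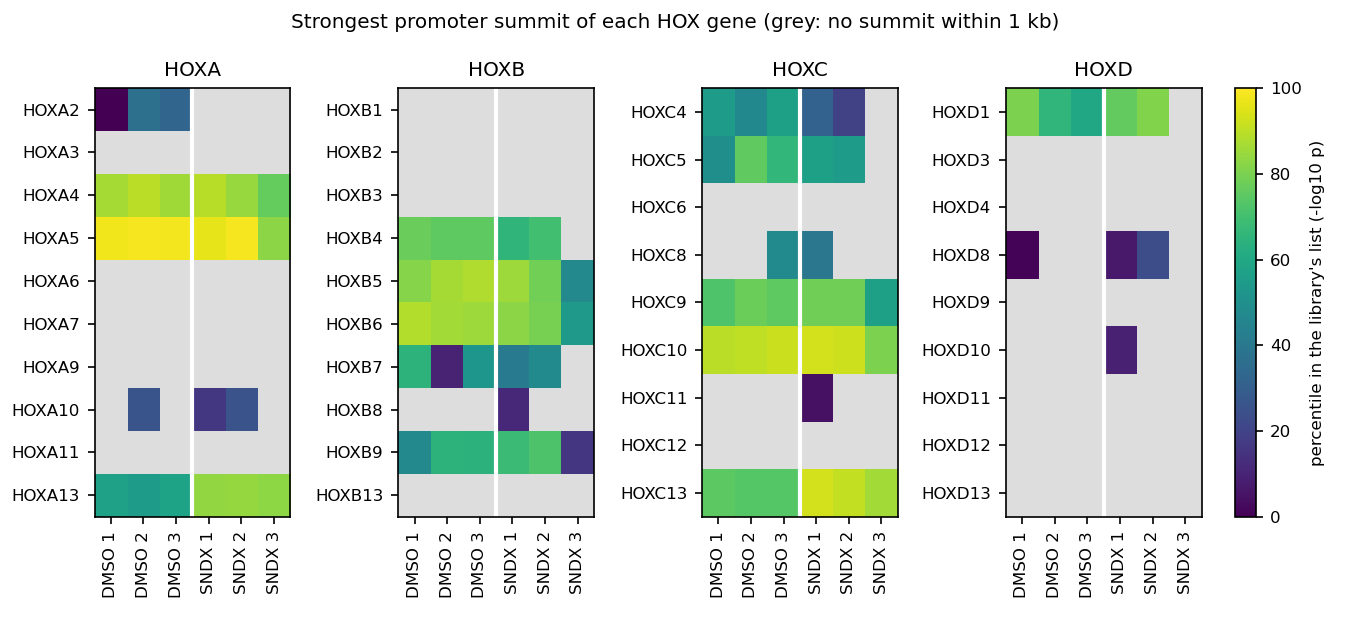
Promoter summits of the 38 HOX genes (rows, by cluster and paralog number) in the 6 libraries (columns, DMSO left of the white line). Colour is the percentile of the strongest summit within 1 kb of the TSS, by -log10 p, among all summits of that library, and grey marks the absence of a summit. HOXA13 and HOXC13 are brighter in the 3 SNDX-5613 libraries, HOXA2 has summits in DMSO libraries alone, and HOXD1 is the 1 HOXD promoter with a peak in all 5 deeper libraries.

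By position along the body axis, the anterior genes (paralog groups 1 to 3) were the least open. Of 7 anterior promoters 0 were open in all 6 libraries and 5 in none. Of 15 central promoters (groups 4 to 8), 4 were open in all 6 and 4 in none, and of 16 posterior promoters (groups 9 to 13), 5 were open in all 6 and 8 in none. The 17 closed promoters were those of HOXA3, HOXA6, HOXA7, HOXA9, HOXA11, HOXB1, HOXB2, HOXB3, HOXB13, HOXC6, HOXC12, HOXD3, HOXD4, HOXD9, HOXD11, HOXD12 and HOXD13. HOXA9, the gene that MLL fusions are best known for activating in leukemia, was thus without a peak in every library, with the nearest summit 4420 bp away. The distance from a closed TSS to the nearest summit of any library ran from 1067 bp at HOXC6 to 16402 bp at HOXD3.

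The number of open HOX promoters did not differ between groups beyond the spread. It was 16 in each DMSO library, or 42.1%, and 20, 16 and 9 in SNDX-5613 replicates 1, 2 and 3. The means were 16 ± 0 and 15 ± 5.57 (SD, n = 3 each), a difference of -1, and without SNDX-5613 replicate 3 the difference was 2. In the same libraries 65.9% to 68.3% of all protein-coding promoters were open with DMSO, and 69.6%, 69.2% and 59.7% with SNDX-5613. SNDX-5613 replicate 3 was low on both measures. Open HOX promoters were also narrower than open promoters in general. The median region at the 9 HOX promoters open in all 6 libraries was 450, 368 and 439 bp wide in DMSO and 447, 441 and 211 bp in SNDX-5613 libraries, against 763 to 796 bp and 466 to 805 bp for all promoters open in all 6.

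For the promoters that stayed open, the strength of the summit was compared as a rank. The strongest -log10 p within 1 kb of the TSS was turned into a percentile among the 11751 protein-coding promoters open in all 6 libraries, and a promoter was called higher or lower when the 3 SNDX-5613 percentiles lay wholly above or below the 3 DMSO percentiles. With 3 against 3 libraries such a separation has a two-sided exact permutation p of 0.1, the smallest these numbers allow. Of all 11751 promoters 7.29% were called higher and 6.69% lower. Of the 9 HOX promoters 4 were higher (44.4%), namely HOXA13, HOXC13, HOXC10 and HOXC9, and 1 was lower (11.1%), namely HOXB6. The 4 that ranked higher are all posterior genes, and the 1 that ranked lower is central. The 9 comprise 5 posterior and 4 central genes. To be ranked, a promoter had to have a peak in the shallow SNDX-5613 replicate 3. The median percentile of the 9 was 13.19, 14.13 and 16.05 with DMSO and 14.70, 14.37 and 32.96 with SNDX-5613. It was thus raised in SNDX-5613 replicate 3 alone. Whether this selection raised the share called higher was not tested. Without that library 4 of 14 HOX promoters were higher and 4 lower, as given below.

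The largest differences were at the 2 genes of paralog group 13 that were open. HOXA13 and HOXC13 stand at the posterior ends of their clusters. HOXA13 acts in the limb ends and the urogenital tract, and HOXC13 in hair and nails. The DNA before the HOXA13 TSS is shown since this promoter had one of the 2 largest rises and it is set beside that of HOXA2, the promoter with a peak in DMSO libraries alone. Each line is the 250 bases upstream of the TSS, 5′ to 3′ on the strand of the gene, from RefSeq on GRCh38.p14. Capitals mark matches, on either strand, to CCAAT (the core of the NF-Y site), GGGCGG (an SP box) and TGATNNAT (a HOX-PBX core).
HOXA13, chr7:27200092-27200341, minus strand: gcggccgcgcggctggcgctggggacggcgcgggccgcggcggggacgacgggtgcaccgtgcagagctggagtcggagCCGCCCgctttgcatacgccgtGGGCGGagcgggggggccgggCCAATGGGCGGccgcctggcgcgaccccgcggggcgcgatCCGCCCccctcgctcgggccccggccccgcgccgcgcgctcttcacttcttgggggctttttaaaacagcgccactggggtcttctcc
HOXA2, chr7:27102684-27102933, minus strand: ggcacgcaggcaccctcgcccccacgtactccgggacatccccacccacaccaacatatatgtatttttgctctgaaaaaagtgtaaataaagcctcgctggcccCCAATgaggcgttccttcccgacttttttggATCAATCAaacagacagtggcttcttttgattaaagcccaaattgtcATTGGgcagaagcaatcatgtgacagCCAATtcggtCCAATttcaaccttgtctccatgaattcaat

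The HOXA13 sequence held 1 CCAAT, which began 128 bases before the TSS and ran straight into 1 of 4 GGGCGG boxes. Its summits lay 147 to 185 bases before the TSS in the 6 libraries, inside the stretch shown. The HOXA2 sequence held 4 CCAAT and 1 TGATNNAT match and no GGGCGG box. Its summits lay 259 to 323 bases before the TSS, just beyond the stretch shown.

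At HOXA13 (ENSG00000106031.9, TSS at position 27200091 of chromosome 7 in hg38, minus strand) the pileup at the strongest summit was 27, 27 and 31 reads with DMSO (replicates 1, 2 and 3, the order of all values given by library) and 68, 76 and 21 with SNDX-5613. As a ratio to the median pileup in the same library over all promoters open in all 6 libraries, called relative pileup, these were 0.197, 0.148 and 0.175 with DMSO and 0.436, 0.469 and 0.808 with SNDX-5613. The groups did not overlap, and the lowest SNDX-5613 value was well above the highest DMSO value. In bulk ATAC-seq a more open promoter in each cell and a larger number of cells with an open promoter cannot be told apart. The mean relative pileup was 3.30 times as high with SNDX-5613, and 2.61 times as high without replicate 3. In percentiles HOXA13 stood at 2.63 ± 0.718 with DMSO and 24.0 ± 18.3 with SNDX-5613 (SD, n = 3 each). The SNDX-5613 percentiles were 12.6, 14.4 and 45.1, the last in the shallow replicate 3. The region was 450, 275 and 420 bp wide in DMSO libraries and 509, 675 and 244 bp in SNDX-5613 libraries.

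HOXC13 (ENSG00000123364.5, TSS at position 53938831 of chromosome 12, plus strand) also ranked higher. Its pileup was 40, 40 and 44 reads with DMSO and 116, 107 and 23 with SNDX-5613, and its relative pileup was 0.292, 0.219 and 0.249 against 0.744, 0.660 and 0.885. Every SNDX-5613 library was above every DMSO library, by a ratio of means of 3.01, or 2.77 without SNDX-5613 replicate 3. The percentile was 7.03 ± 1.49 with DMSO and 39.3 ± 12.1 with SNDX-5613 (SD, n = 3 each). Of all promoters open in all 6 libraries, 99.9% had a smaller percentile difference than HOXC13 and 99.4% a smaller one than HOXA13. The other genes of the group, HOXB13 and HOXD13, had no promoter peak in any library.

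**Figure D2:**
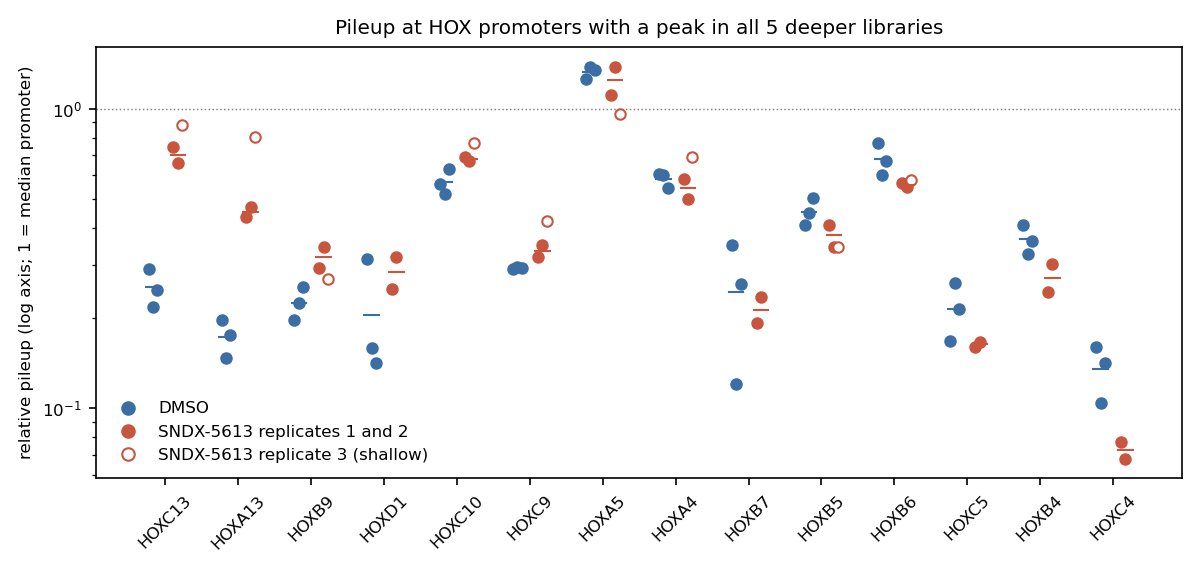
Relative pileup (log axis, 1 is the median promoter of the library) at the 14 HOX promoters with a peak in all 5 deeper libraries, ordered by the ratio of SNDX-5613 replicates 1 and 2 to DMSO. Each point is a library, horizontal lines are the means of the 3 DMSO libraries and of SNDX-5613 replicates 1 and 2, and open circles are the shallow SNDX-5613 replicate 3. HOXC13 and HOXA13, at the left, are higher in every SNDX-5613 library, and HOXC4, at the right, is lower in both of its SNDX-5613 libraries.

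HOXC10 and HOXC9 ranked higher by small amounts. HOXC10, a posterior gene of the trunk and hindlimb, had percentiles of 26.96, 23.03 and 32.6 with DMSO and 36.9, 35.3 and 39.8 with SNDX-5613. It had a narrow region of 195 to 270 bp in all libraries. HOXC9, expressed in the thoracic spinal cord during development, had percentiles of 7.28, 7.44 and 7.497 with DMSO and 8.36, 9.11 and 15.3 with SNDX-5613. Both differences changed sign when the percentile was taken within the whole list of each library, to -2.17 for HOXC10 and -3.90 for HOXC9. HOXC10 also changed sign, to -7.26, when percentiles were taken by fold enrichment. HOXA13 and HOXC13 kept their direction and their separation under every alternative that gave a value.

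HOXB6, a central gene, ranked lower. Its percentiles were 23.2, 14.1 and 16.1 with DMSO and 11.6, 10.00 and 13.5 with SNDX-5613, a gap of under 1 percentile between the groups, and the mean fell from 17.8 ± 4.77 to 11.7 ± 1.76 (SD, n = 3 each). The call was lost with a 3 kb window and by fold enrichment, under each of which 0 HOX promoters ranked lower. Its strongest summit lay inside the gene, 637 to 912 bases after the TSS, and not upstream. The lower rank of HOXB6 thus refers to that summit. A separate, weaker site was centred 19 bp from the TSS (chr17:48604849-48605086). Its -log10 p with DMSO was 12.6, 12.6 and 10.0. With SNDX-5613 it was 9.94 (replicate 1) and 13.7 (replicate 2), so these values overlapped. The shallow replicate 3 lacked this peak. HOXA5, a central gene known as a tumor suppressor in several epithelia, was the strongest HOX promoter in the 5 deeper libraries and the 1 whose relative pileup passed 1 there. Its percentiles were 77.8, 81.1 and 80.5 with DMSO and 58.5, 83.0 and 44.5 with SNDX-5613, so the groups overlapped. HOXB9 was the weakest of the HOXB promoters open in all 6, at 1.88, 3.29 and 4.09 with DMSO and 3.69, 5.77 and 2.03 with SNDX-5613, and its percentiles overlapped. Its relative pileups of 0.197, 0.224 and 0.254 with DMSO and 0.295, 0.346 and 0.269 with SNDX-5613 did not overlap, with a ratio of means of 1.35, or 1.42 without SNDX-5613 replicate 3. The ratios of HOXC10 and HOXC9 were 1.25 and 1.24. The groups also overlapped at HOXA4, with 16.2 to 21.0 against 15.3 to 33.0, and at HOXB5, with 13.2 to 20.5 against 9.39 to 14.7.

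Without the shallow library 14 HOX promoters could be ranked, among 12754 protein-coding promoters open in all 5 deeper libraries. Of all 12754, 12.2% were called higher and 12.5% lower, a larger share than with 6 libraries since 2 libraries are more easily separated from 3. Of the 14 HOX promoters 4 were higher (28.6%), again HOXA13, HOXC13, HOXC10 and HOXC9, and 4 were lower (28.6%), namely HOXC4, HOXC5, HOXB4 and HOXB6. All 4 higher genes are posterior and all 4 lower genes are central, where the 14 comprise 5 posterior, 8 central and 1 anterior gene. This split was not tested, since the genes share clusters and libraries. HOXC10 and HOXC9 also changed sign within whole lists, as given above. Both directions occurred within HOXC, at genes that lie on 1 stretch of 117.2 kb.

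HOXC4 had the largest fall in relative pileup, though its difference in mean percentile (-5.27) was smaller than those of HOXA5 (-8.32) and HOXB6 (-6.73). Its relative pileup was 0.161, 0.104 and 0.141 with DMSO and 0.0769 and 0.0679 in SNDX-5613 replicates 1 and 2, a ratio of means of 0.536. The 22, 19 and 25 reads at the summit with DMSO stood against 12 and 11 reads with SNDX-5613. The strongest summit also lay elsewhere, 12 to 26 bases before the TSS in DMSO libraries and 255 and 292 bases after it in the 2 SNDX-5613 libraries, and SNDX-5613 replicate 3 had no peak there. Among all promoters in the 5 libraries 0.0392% had a smaller ratio, while 5% lay below 0.841 and 5% above 1.38. The median pileup of promoters open in all 6 libraries was 137 to 183 reads in these 5 libraries, far above that of HOXC4. Whether its ratio is unusual among promoters of like pileup was not tested.

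HOXB4, a gene used to expand blood stem cells, fell from 0.409, 0.328 and 0.362 to 0.244 and 0.302, a ratio of 0.746. HOXC5 fell from 0.168, 0.262 and 0.215 to 0.160 and 0.167, a ratio of 0.760, and its groups nearly touched. HOXB6 had a ratio of 0.821. HOXB4 and HOXC5 had no peak in SNDX-5613 replicate 3. The bases around the summits of the 4 lower promoters were 46.5% to 55.5% G or C, and those of HOXA13, HOXC13, HOXC10 and HOXC9 77.4%, 65.1%, 62.1% and 50.8%, so that the ranges overlapped. Over all 12754 promoters the ratio and this GC share had a Spearman rho of -0.0807, given as a description over promoters of the same 5 libraries. The median ratio was 1.02 at promoters below 55% and 1.01 at those of 65% or more.

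**Figure D3:**
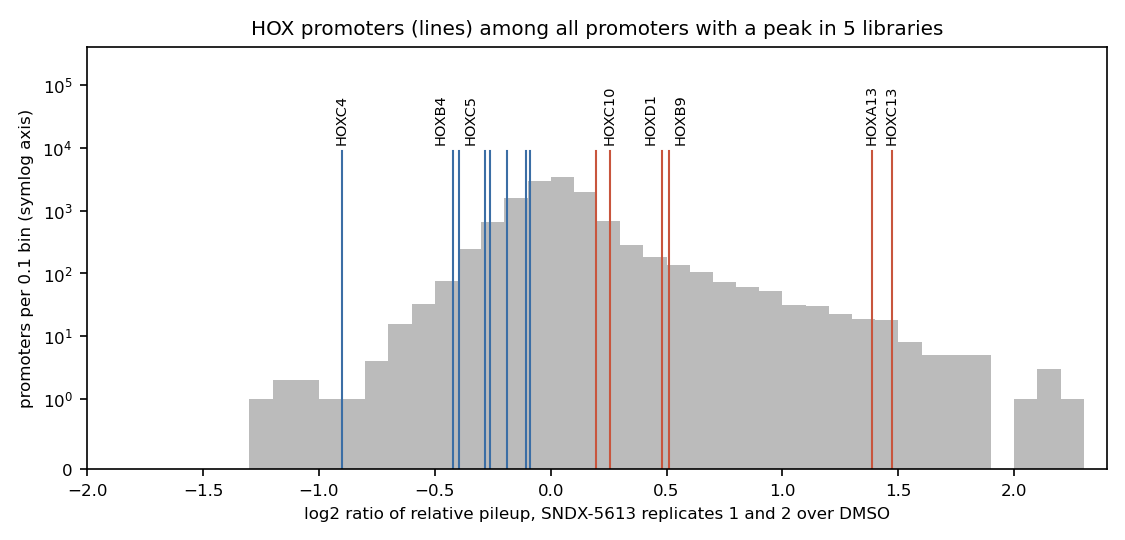
Distribution of the log2 ratio of relative pileup (SNDX-5613 replicates 1 and 2 over DMSO) for all 12754 promoters open in the 5 deeper libraries (grey bars, symmetric log count axis), with the 14 HOX promoters as lines, blue below 0 and red above. HOXC13 and HOXA13, with ratios of 2.77 and 2.61, lie farthest in the upper tail and HOXC4, with 0.536, farthest in the lower tail. The other HOX promoters lie between them. HOXB4, HOXC5, HOXB6 and HOXB5 are also below 0.841, under which 5% of all promoters fall. HOXD1 and HOXB9 are above 1.38, over which 5% fall.

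The promoters open in some libraries alone held mostly weak peaks. HOXA2, an anterior gene of the hindbrain and second pharyngeal arch, had a peak in every DMSO library and in 0 SNDX-5613 libraries, with -log10 p of 3.37, 9.70 and 8.96 and pileups of 16, 32 and 34 reads. This pattern was found at 0.1% of all 20007 protein-coding promoters (20 genes) and at 1 of 38 HOX promoters. Among all summits of its library the HOXA2 summit stood at the 0.245, 36.8 and 32.5 percentile, so it was near the weakest peak called in DMSO replicate 1.

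HOXD1, the 1 anterior gene open in all 5 deeper libraries, had percentiles among the 12754 promoters of 18.3, 8.10 and 7.74 with DMSO and 13.1 and 17.4 with SNDX-5613, which overlapped. HOXB7 had 10.2, 0.251 and 5.84 with DMSO and 2.00 and 3.31 with SNDX-5613, which overlapped as well. HOXC4, HOXC5, HOXB4, HOXB7 and HOXD1 were thus missing from SNDX-5613 replicate 3 alone. HOXA10, a posterior gene of the uterus and of blood, had weak peaks in DMSO replicate 2 and in SNDX-5613 replicates 1 and 2, of 11, 9 and 12 reads. HOXD8 had peaks of 6 reads in DMSO replicate 1, the lowest pileup called in that library, and of 7 and 11 reads in SNDX-5613 replicates 1 and 2. HOXC8 had peaks of 42 reads in DMSO replicate 3 and of 31 reads in SNDX-5613 replicate 1. HOXB8, HOXC11 and HOXD10 had a peak in SNDX-5613 replicate 1 alone, of 22, 9 and 7 reads. None of these patterns separated the groups.

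Beyond promoters, each cluster was taken from the first to the last base of its listed genes plus 50 kb on each side. In these 4 windows the regions of the 6 libraries merged into 131 sites, of which 98 touched a cluster span and 38 were present in all 6 libraries. Of the 131 sites 61 were centred in introns, 31 between genes, 25 in exons and 14 in UTRs, and 27 lay within 1 kb of a HOX TSS. The merged sites were 103 to 1860 bp wide. HOXB had 15 and HOXA 14 of the sites present in all libraries, HOXC had 5 and HOXD 4. The longest stretch of a span with no site in any library was 45.6 kb in HOXB, between HOXB9 and HOXB13, 33.3 kb in HOXD, over the starts of HOXD4 and HOXD3, 11.9 kb in HOXA, over that of HOXA9, and 11.6 kb in HOXC, over that of HOXC11, whose single weak summit lay past the end of this stretch.

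**Figure D4:**
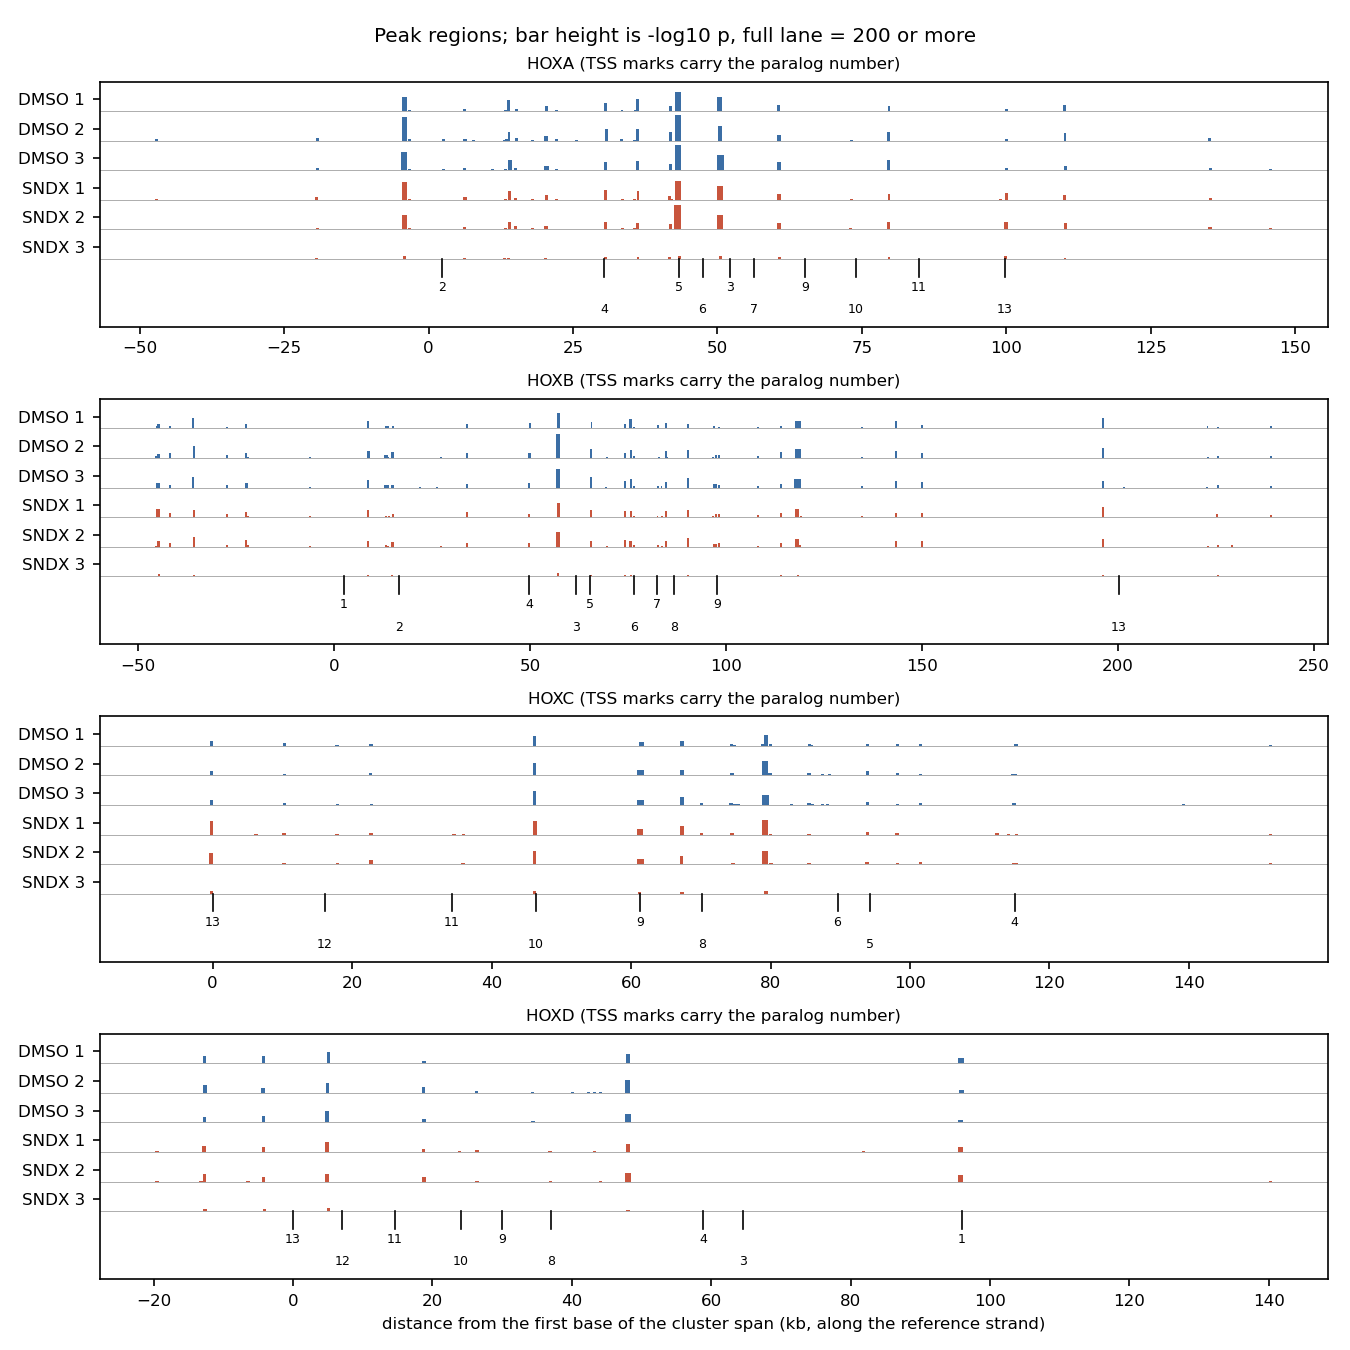
Peak regions of the 6 libraries over each HOX cluster and 50 kb on each side, by distance in kb from the first base of the cluster span. Bar height is -log10 p, with a full lane at 200 or more, bars are drawn at least 0.5 kb wide, and black marks are the TSSs with their paralog number. The peak at the start of HOXC13 is taller in SNDX-5613 replicates 1 and 2 than in the DMSO libraries, and the HOXD window is empty over the starts of HOXD4 and HOXD3.

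The share of each library's peak bases in a cluster window was compared by an exact permutation test, which cannot give p below 0.1 here. With DMSO and SNDX-5613 this was 321 ± 38.2 and 314 ± 21.1 bp per Mb of peak bases for HOXA, 472 ± 29.4 and 385 ± 45.9 for HOXB, 177 ± 21.4 and 164 ± 55.2 for HOXC, and 98.5 ± 5.89 and 112 ± 11.2 for HOXD (SD, n = 3 each). The two-sided exact permutation p-values were 0.8, 0.1, 0.9 and 0.2, and 0.9, 0.4, 0.9 and 0.4 after Benjamini-Hochberg adjustment over the 4 clusters, with 0.1 the smallest unadjusted p possible. The 3 HOXB values with SNDX-5613 (403, 420 and 333) all lay below the 3 with DMSO (475, 441 and 499), and the difference was -86.5, or -60.4 without SNDX-5613 replicate 3. HOXC changed direction without that library, from -13.3 to 18.3. HOXC and HOXD had less than the other clusters in every library.

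**Figure D5:**
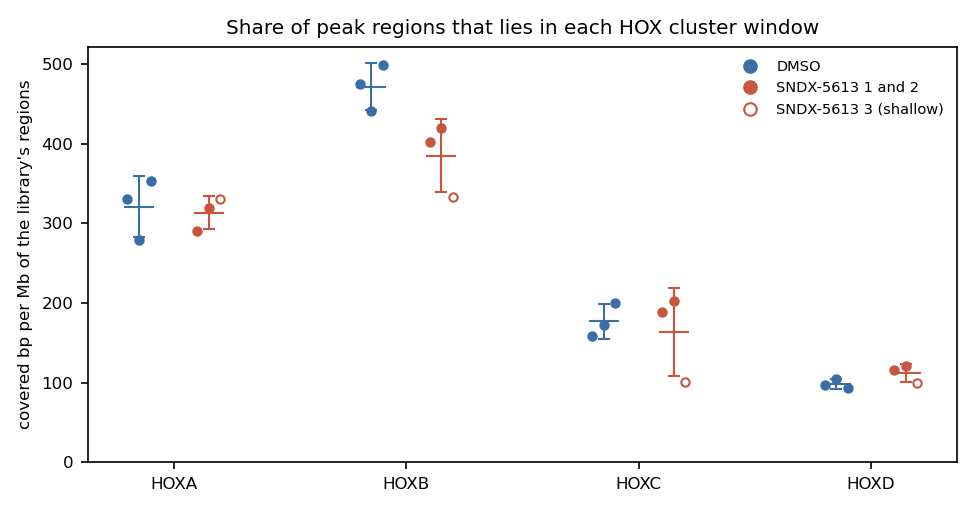
Peak bases in each HOX cluster window (span plus 50 kb on each side) per Mb of peak bases in the whole list of the library. Points are libraries, bars and whiskers are the mean and SD of 3 libraries, and the open circle is the shallow SNDX-5613 replicate 3. HOXB is the cluster in which the 3 SNDX-5613 values (333 to 420) lie below the 3 DMSO values (441 to 499).

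Site by site, no HOX site was present in all 3 SNDX-5613 libraries and absent from all 3 DMSO libraries, and 2 sites of 131 (1.53%) had the opposite pattern. Over all 166021 sites of the genome 0.147% were gained and 1.18% lost by this rule. With a -log10 q of at least 3, with lists of equal length or with presence by 50% cover, 0 HOX sites were lost. Both lost sites were in HOXA. The first, chr7:27102718-27103058, is the HOXA2 promoter peak described above. The second, chr7:27125825-27126063, lies in an intron of HOXA3, 4813 bp from the HOXA4 TSS, and had -log10 p of 4.39, 5.08 and 4.03 in the DMSO libraries, close to the weakest values called.

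Without SNDX-5613 replicate 3 the same 2 sites were lost and 3 were gained (2.31% of 130), against 1.23% and 2.43% of all sites. A gained site at chr7:27199198-27199571 is in an exon of HOXA13, centred 707 bp from its TSS, and had -log10 p of 5.08 and 5.67 in SNDX-5613 replicates 1 and 2. HOXA13 thus had a second, weak peak beside the stronger promoter summit in these 2 libraries. A gained site at chr12:53974560-53974897, in HOXC11 and within 1 kb of the start of HOTAIR, a noncoding RNA gene of the cluster, had 3.72 and 9.99. The last, chr2:176073088-176073334, is intergenic, 19510 bp from HOXD13, and had 10.0 and 4.54.

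Among the 38 HOX sites present in all 6 libraries, 7 ranked higher with SNDX-5613 (18.4%) and 3 lower (7.89%), against 8.54% and 8.08% of all 33405 such sites. When libraries were instead paired by replicate number and had to move one way in all 3 pairs, 8 HOX sites ranked higher and 7 lower, against 16.2% and 16.5% of all sites. Of the 7 sites that ranked higher without pairing, 5 were in HOXC, 1 in HOXA and 1 in HOXB, and the 3 lower sites were all in HOXB. All 5 HOXC sites present in all libraries ranked higher, and the shallow SNDX-5613 replicate 3 had 5 regions in the HOXC window. These sites were at the promoters of HOXC13, HOXC10 and HOXC9 and at 2 introns of HOXC6 (chr12:54005901-54006294 and chr12:54017599-54018933). The gap between groups at 4 of them was 1.04 to 3.87 percentiles, and by percentiles within whole lists 2 HOX sites in all were called higher. In the 5 deeper libraries 12 HOXC sites were present throughout, of which 5 ranked higher and 3 lower. The widest gaps between groups were at the HOXC13 promoter (chr12:53938406-53938852, 447 bp, in an intron of HOXC13-AS), with site percentiles of 36.2, 23.8 and 30.0 against 73.9, 69.4 and 81.7, and at the HOXA13 promoter (chr7:27199979-27200663, 685 bp, in an intron of HOTTIP), with 15.4, 7.18 and 12.1 against 45.8, 50.7 and 77.9. The gaps were 33.2 and 30.3 percentiles, and the next among the higher sites was 6.19. That site, chr17:48483095-48484081, is intergenic in the HOXB flank, 47423 bp from HOXB1, with 33.8, 24.7 and 30.8 against 56.0, 40.04 and 61.9.

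The 3 lower sites had gaps of 7.38, 4.64 and 3.16 percentiles. A site in an intron of HOXB2 (chr17:48541339-48542573) had percentiles of 15.6, 16.7 and 12.6 with DMSO and 2.51, 4.94 and 5.24 with SNDX-5613. A site in the HOXB6 gene (chr17:48603746-48604628), which holds the strongest HOXB6 promoter summit, had 64.5, 49.9 and 54.4 against 43.0, 40.2 and 45.3. A strong site in an intron of HOXB3 (chr17:48585113-48586150), between the starts of HOXB4 and HOXB3, had 83.2, 88.03 and 82.9 against 76.4, 78.5 and 79.7. Without SNDX-5613 replicate 3, 9 of 66 HOX sites present in all 5 libraries ranked higher (13.6%) and 11 lower (16.7%), against 14.3% and 14.4% of all such sites.

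The consensus regions that the authors combined from the libraries of each group numbered 86 with DMSO and 89 with SNDX-5613 in the 4 windows. Of these, 77 of 86 overlapped a SNDX-5613 region and 80 of 89 a DMSO region, which left 9 in each set alone (10.5% and 10.1%). Over the whole genome 11.7% of DMSO and 11.1% of SNDX-5613 regions had no partner in the other set.

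Most genes that work beside HOX were open. Of 9 genes for the TALE cofactors (MEIS, PBX and PKNOX), which bind DNA together with HOX proteins, 7 were open in every library and 0 were ranked higher or lower. Of 28 trithorax and Polycomb regulators, which set the marks on HOX chromatin, 27 were open in all 6, with 1 higher and 1 lower. Among all promoters open in all 6 libraries 7.29% were called higher and 6.69% lower. The higher was KMT2B, an H3K4 methyltransferase of the MLL family, at 59.1 ± 14.1 with DMSO and 79.1 ± 3.11 with SNDX-5613. Its highest percentile with DMSO was 75.4 and its lowest with SNDX-5613 was 76.3. The lower was AFF4, a subunit of the super elongation complex, at 86.6 ± 4.99 and 71.4 ± 6.64 (SD, n = 3 each). Its lowest percentile with DMSO was 81.1 and its highest with SNDX-5613 was 78.0. Of 12 matched neighbours of the clusters, 6 were open in all 6 libraries and 6 in none, and 0 were ranked higher or lower. Inside the clusters 24 noncoding RNA genes were followed, of which 5 were open in all 6 libraries and 12 in none, and the 2 that ranked higher, HOXC-AS3 and HOXC-AS1, start beside HOXC10 and HOXC9 and share their summits.

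Short motifs were counted at the HOX promoters. The RefSeq promoter table held 20 of the 38 genes, 17 of them with the same TSS as used here. Of the 20 genes 2 were open in all 6 libraries and 11 in none. The 17 were HOXA and HOXD genes and HOXB1, so that HOXC was not covered and HOXB hardly. In the window from 250 bases before to 50 after the TSS, 14 of these 17 (82.4%) held CCAAT, 10 (58.8%) GGGCGG and 3 (17.6%) TGATNNAT, against 36.6%, 59.2% and 4.94% of all 15345 protein-coding promoters in the table. The CpG observed over expected ratio had a median of 0.871 at the 17 HOX promoters and 0.767 at all promoters. Within 150 bp of the summit, CCAAT was found at 12 of the 21 HOX promoters open in any library (57.1%) and at 35.7% of all 14798 such promoters, GGGCGG at 57.1% and 72.0%, and TGATNNAT at 19.05% and 2.42%. The 4 promoters that ranked higher all held CCAAT there, and so did HOXC4, HOXC5 and HOXB4 but not HOXB6 among the 4 that ranked lower. A match is a description of the letters and does not show that a factor was bound.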

How the data were processed

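ATAC-seq was done on 6 HLF libraries, 3 with DMSO and 3 with SNDX-5613, grouped by the labels. The authors' tools, per the submitters' processing notes, include Trim Galore 0.6.7, Bowtie2 2.3.4.1, Picard 2.20.0, SAMtools, deepTools 3.5.4 and MACS2, on hg38. Whether reads were shifted for the Tn5 cut is not given in the sources used here. The deposited peak lists give a fold enrichment, a -log10 p and a -log10 q per summit, called by the authors on each library alone. The deposited consensus sets hold positions and a combined -log10 p, and only the positions were used. Read counts were not analysed here.

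Pileups were solved as whole numbers from the fold and -log10 p, within 0.001 of the latter. TSSs were MANE Select starts from GENCODE release 44, else the Ensembl canonical start, else the start of the gene. Sites are regions of the 6 lists merged where they overlap by at least 1 bp. For covered shares the libraries were permuted exactly (two-sided). Python 3.11.15, pandas 2.3.3, numpy 2.4.6, scipy 1.17.1 and matplotlib 3.10.9 were used, and the code was tested on simulated data.

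Values per library are given for members whose groups do not overlap, members open in some libraries only and the highest and lowest mean percentile per cluster, and for gained and lost sites and the 3 widest gaps in each direction. The members, gene lists and motifs were chosen with earlier results of these data known. Of the 39 HOX genes 1 is not reported here. Alternatives were a stricter -log10 q of 3, lists of equal length, no flank, a window of 3 kb, any annotated TSS, overlap in place of summits, ranking by fold or within whole lists, presence by 50% cover, each library left out and a replicate block. Ranking by pileup was added after seeing the data.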

Additional observations from a re-analysis of the deposited data

How the results depend on the processing

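HOXA13 and HOXC13 ranked higher under every alternative that gave a value, with percentile differences of 13.2 to 32.3 (13 alternatives) and 15.97 to 37.4 (14 alternatives). HOXA13 could not be ranked in lists of equal length. The other calls changed between alternatives, and the causes were not tested. Where no share of all promoters or sites is given, a count is not a result about the HOX genes. With a -log10 q of at least 3, 0 HOX sites were lost and the HOXA share differed by 4.203 bp per Mb. With lists of equal length, 2 sites were gained, at the promoters of HOXA13 and HOXB9, against 0.806% of all 57536 sites, 0 were lost, and the HOXA share differed by 26.95. Without the flank the HOXD share differed by -8.84. With a 3 kb window 0 HOX promoters ranked lower, and with any annotated TSS 2 did. By fold enrichment 2 promoters ranked higher and 0 lower, HOXC10 differed by -7.26 and 0 sites ranked lower. Within whole lists 2 promoters and 2 sites ranked higher, and HOXC10 and HOXC9 differed by -2.17 and -3.90. With presence by 50% cover 0 sites were lost.

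Leaving out 1 library at a time gave 4 to 5 promoters higher and 1 to 4 lower, 0 to 3 sites gained and 2 to 5 lost, and 7 to 9 sites higher and 4 to 11 lower. Without SNDX-5613 replicate 3 the shares of all promoters called also rose, from 7.29% to 12.2% higher and from 6.69% to 12.5% lower. The share of all sites gained rose from 0.147% to 2.43%. For the other libraries left out such shares are not given, so these counts cannot be set against all promoters and sites. The difference in open HOX promoters ran from -3.5 to 2. The share differed by -28.6 to 8.59 in HOXA, -103.8 to -60.4 in HOXB, -32.5 to 18.3 in HOXC and 9.46 to 20.0 in HOXD. The HOXA share turned positive without DMSO replicate 3 (8.59) and without SNDX-5613 replicate 1 (4.25). Without DMSO replicate 1, 5 sites were lost, and without SNDX-5613 replicate 1 or replicate 2, 4 were lost and 2 promoters ranked lower.

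With a replicate block 7 HOX sites ranked lower and 8 higher, in place of 3 and 7. Of all sites 16.5% ranked lower and 16.2% higher in this way. Among HOX promoters 4 ranked higher and 1 lower, as without the block, and the share of all promoters is not given. The paired exact p for HOXB was 0.25, the smallest 3 pairs allow. Deviations of libraries with the same number correlated by 0.0361, -0.0106 and 0.00734, which does not show a pairing, and whether same-numbered libraries came from 1 dish is not given. SNDX-5613 replicate 3 limits what can be said of absent peaks, since its lowest called pileup was 3 reads against a background of 0.211.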
